A study of Mus musculus with 21 samples.

Results

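Translation initiation factors (eIFs) and elongation factors (eEFs), with the enzymes and binding proteins named after them, were taken as the genes whose symbol starts with Eif or Eef followed by a digit. The kinases of eIF2 (Eif2ak genes), the Y-linked Eif2s3y, pseudogene symbols (-ps) and antisense symbols (os) were left out. The pattern matched 67 of the 40853 genes counted, and the 62 with a mean of at least 10 reads over the 21 libraries were kept. Those left out by the minimum were Eif4e1b with a mean of 1 read, Eef1akmt3 with 0.333, and Eef1akmt4-ece2, Eif2c5 and Eif4a3l1 with 0 in every library. The kept genes nearest to the minimum were Eef1akmt4, with a mean of 38.9 reads, and Eif5a2, with 58.5. All 62 were also among the 16129 genes kept by edgeR's low-count filter and tested.

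Poly(A) RNA was sequenced from the medial belly of the gastrocnemius, a calf muscle, of 21 female C57BL/6NJ mice that were 10 weeks old at the start, with 7 mice in each of 3 groups and 1 library per mouse. The Active group ran on a treadmill for 6 weeks, in 5 sessions per week, each a warm-up followed by running at about 70% of the maximal speed for a time that was lengthened over the first weeks. The Activity Reduction group ran in this way for 4 weeks and was then inactive for 2 weeks, and the Inactive group was not trained during the 6 weeks. Mice of all 3 groups, the Inactive group included, had a last maximal running test before the muscle was collected, so no group was without any running.

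The libraries held between 38482455 and 59785132 reads counted on genes. Every Active library (at most 49211581) lay below every Inactive library (at least 49284630), so depth and training cannot be told apart between these groups, beyond the scaling of every value to library size. Nearly the same holds against the Activity Reduction libraries (48906675 to 55773226). Only Active replicate 5, with 49211581, lay above the lowest of them. The 12 markers of skeletal muscle fibres summed to between 173879 and 207296 CPM, counts relative to the total of each library, in the 21 libraries, so the defining genes of the labelled tissue were abundant in each. Transcripts of 24 liver genes, all of them above 0, summed to between 230 and 2417 CPM in the Inactive, 222 and 2154 CPM in the Active and 169 and 1686 CPM in the Activity Reduction libraries. At their largest gap on a log2 scale these sums divided the libraries into 8 with more liver transcripts (1 Inactive, 5 Active and 2 Activity Reduction) and 13 with fewer (6, 2 and 5). The gap lay between 371 CPM in an Activity Reduction library and 800 CPM in Active replicate 2, which on a linear scale was nearer to the 13 than to the next library of the 8 (1449 CPM). Because most Active libraries are among the 8, the main counts are given again with the division as a covariate and within the 13 libraries. In RNA from a whole muscle, fewer cells of a type and less RNA per cell cannot be told apart.

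Initiation begins when eIF2 carries the initiator tRNA to the small ribosomal subunit, where eIF1, eIF1A, eIF3 and eIF5 assemble, and when the cap-binding complex of eIF4E, the scaffold eIF4G and the helicase eIF4A brings in the mRNA. During elongation eEF1A delivers aminoacyl-tRNAs, the eEF1B subunits recharge it with GTP, and eEF2 moves the ribosome along the mRNA. In skeletal muscle this machinery is controlled mainly at the protein level, through mTORC1 and the 4E-binding proteins, through phosphorylation of eIF2, and through the kinase of eEF2, none of which a count of transcripts measures. Adult muscle fibres use eEF1A2 in place of the eEF1A1 that most other cells use.

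The 62 factors together took a mean of 1.12% ± 0.0292 (SD over the 7 libraries) of all counts in Inactive muscle, 1.05% ± 0.0299 in Active muscle and 1.08% ± 0.0465 after activity reduction. Levels are given as normalized counts, which are reads divided by DESeq2's size factors, and are compared between genes only per kb of length. Per kb of the canonical GENCODE transcript (the 61 factors found there by symbol), Eef2 was highest, with 27530 normalized counts per kb as a mean of the 21 libraries. Eif1 had 12320, Eef1g 10097, Eif5a 9821, Eif4a2 8363 and Eef1a2 7151 on the same scale. The value of Eef1a2 depends on the length used, because its canonical transcript has 13742 bases and its coding sequence 1389. Per kb of coding sequence it was the most abundant factor, with 70745 normalized counts per kb, followed by Eif1 with 49534 and Eef2 with 33038. At the other end lay Eif5a2 with 11.4 normalized counts per kb of transcript, and the methyltransferases of elongation factors Eef1akmt2 (28.7), Eef1akmt4 (33.6) and Eef2kmt (34.2).

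**Figure D1:**
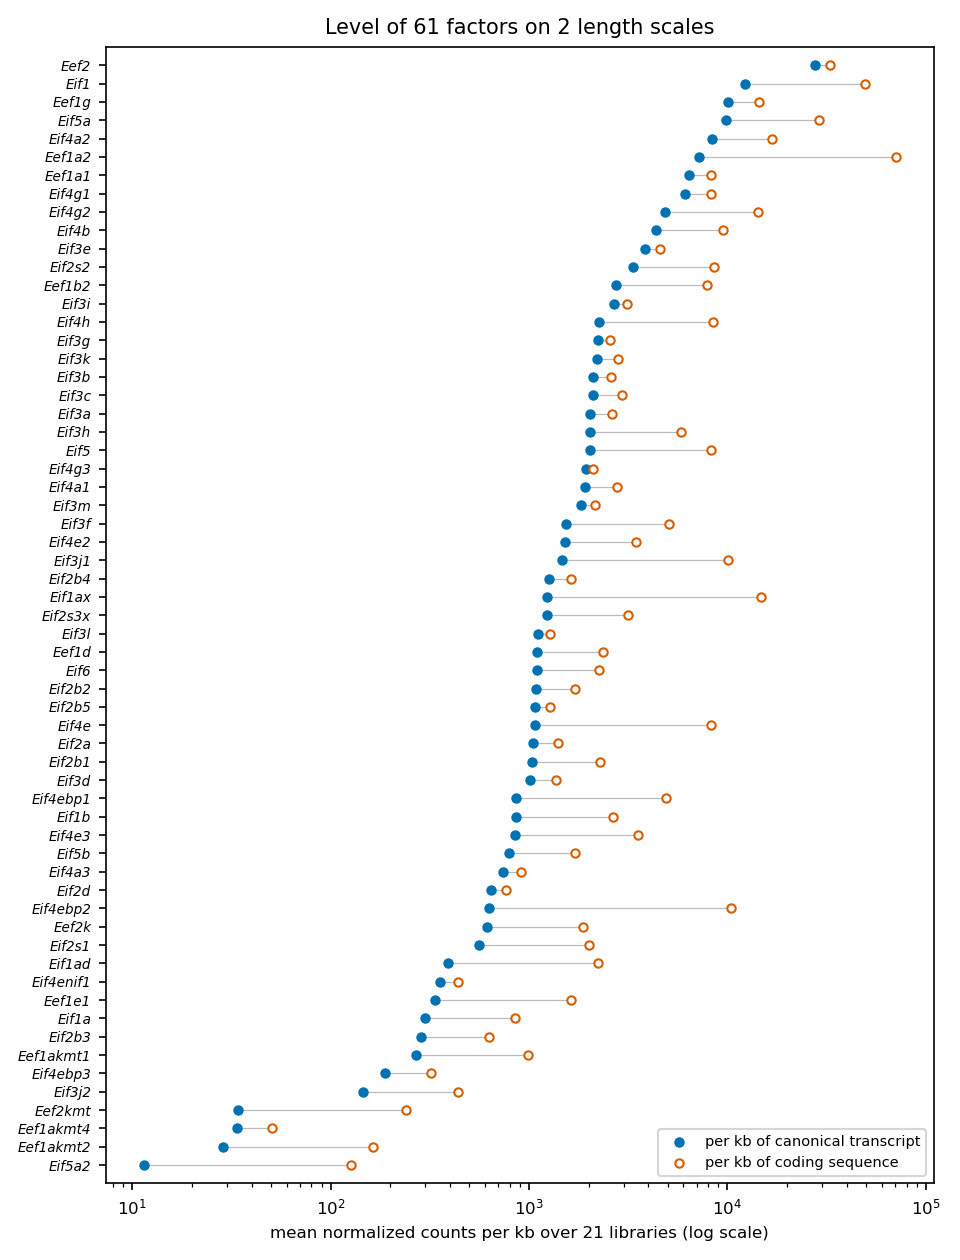
Mean normalized counts per kb over the 21 libraries (log axis) for the 61 factors with a transcript model, per kb of canonical transcript (filled) and per kb of coding sequence (open), ordered by the former. The levels ran from 11.4 for Eif5a2 to 27530 for Eef2 on the transcript scale, and Eef1a2 moved to the top, at 70745, on the coding scale.

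Related factors differed in level in ways that depend on the length scale. Over all libraries Eef1a2, the form of muscle and neurons, had 70745 and Eef1a1, the widespread form, 8297 normalized counts per kb of coding sequence. Per kb of transcript the pair had 7151 and 6410. The coding sequences (GRCm39, Eef1a1 on chromosome 9 from 78384916 to 78396778 and Eef1a2 on chromosome 2 from 180778581 to 180799838, both on the minus strand) were identical at 1108 of 1386 positions, or 79.9%. The first 90 coding bases of each are shown, with the 15 positions at which they differ in capitals:
Eef1a1: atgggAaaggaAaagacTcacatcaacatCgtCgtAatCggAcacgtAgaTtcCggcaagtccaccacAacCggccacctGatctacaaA
Eef1a2: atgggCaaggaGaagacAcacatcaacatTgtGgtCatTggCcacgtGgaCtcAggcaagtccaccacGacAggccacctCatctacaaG

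Among the RNA helicases, Eif4a2 (8363 normalized counts per kb of transcript) was above Eif4a1 (1910) and Eif4a3 (742), which also serves in the exon junction complex. The scaffold Eif4g1 had 6131, Eif4g2, which lacks the eIF4E-binding part, 4859, and Eif4g3 1930 on the same scale. Of the cap-binding proteins Eif4e2 had 1517, Eif4e 1071 and Eif4e3 852 normalized counts per kb of transcript, an order that changed to Eif4e (8219), Eif4e3 (3544) and Eif4e2 (3480) per kb of coding sequence. The 4E-binding proteins, which hold eIF4E away from eIF4G, had 863 (Eif4ebp1), 625 (Eif4ebp2) and 189 (Eif4ebp3) per kb of transcript, with Eif4ebp2 above Eif4ebp1 (10452 against 4925) per kb of coding sequence. Eif5a, the factor that carries hypusine, had 9821 and its paralog Eif5a2 11.4 per kb of transcript. Counts of Eif3j2 are uncertain, because its whole transcript (100% of its length, at 99.1% identity) is matched by that of Eif3j1. The same holds for Eef1a1, of which 7 processed pseudogenes match at least 64.9% of the transcript. Other factors have near copies too. The longest matches 95.7% of the transcript for Eif4a3, 85.2% for Eif3m, 84.2% for Eif3e, 72% for Eef1g and 68.8% for Eif4a1. For Eif4ebp3 the longest match, 66.5%, is to Maskbp3, a gene on the same strand that overlaps 35% of its exon bases. Smaller parts are matched for others, among them Eif1 (48.3%) and Eef2 (43.5%).

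In the promoters, the palindromic E-box CACGTG was found in 29.2% of the 48 factors with an entry in the RefSeq table (14 of 48; 250 bases before to 50 after the start, GRCm38.p6), against 11% of the 12376 tested genes and 8.09% of all 27025 genes with an entry. A gene with several entries was counted if any of them held the match, here and below, so the shares also depend on the number of entries. The ETS motif CCGGAAGT was in 16.7% of the factors (8 of 48) and in 7.82% of the tested genes, the SP1 motif GGGCGG in 77.1% and 62.8%, the TATA motif TATAAA in 8.33% and 10.1%, and CCAAT in 33.3% and 42%, on either strand. A stretch of at least 5 bases of C or T, counted from a C within 5 bases of the start, was in 20.8% of the factors and 23.7% of the tested genes. It is a loose form of the feature of terminal oligopyrimidine mRNAs, because it was counted also where C or T came before that C. Eif4b and Eif4ebp2, which also had an entry, held neither an E-box nor such a stretch. Windows of 30 bases on the gene's strand are shown for 4 factors that are named in the group comparisons and hold a match. The E-box is in capitals for Eef2 (chr10:81176576-81176605), Eef2k (chr7:120842788-120842817) and Eif4g1 (chr16:20672661-20672690). For Eif2b5 (chr16:20498805-20498834) the counted pyrimidine stretch is in capitals, and further C and T come directly before it:
Eef2: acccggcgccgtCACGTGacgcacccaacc
Eef2k: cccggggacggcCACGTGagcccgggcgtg
Eif4g1: ggcagtgggtgtCACGTGatggggcggagc
Eif2b5: tcctctttctCTCCCTgcaactacaccttc

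These matches describe letters in a window and not bound sites. Of the 14 factors with an E-box, 4 were lower in the Active than in the Inactive group at an unadjusted p-value under 0.05, and of the 34 without one 15 were, against 4.69% of all tested genes. In the comparison of the Activity Reduction with the Active group, 5 of the 14 and 10 of the 34 were higher, against 6.89% of all tested genes. The shares with and without an E-box were not tested against each other.

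Between the Active and Inactive groups the factors lay slightly lower in the trained muscle. The log2 fold change was below 0 for 48 of the 62 factors and above 0 for 14, with a median of -0.065, whereas 48.4% of the 16129 tested genes were below 0 and their median was 0.005. At an unadjusted p-value under 0.05 (edgeR's quasi-likelihood test), 23 factors, or 37.1%, were lower in the Active group, against a background of 4.69% of the tested genes. In the other direction 1 factor, Eef1a1, was higher, against 6.18%. Because most factors are abundant, the count was repeated over the genes with a mean of at least 1000 normalized counts, a level chosen after the data were seen: 19 of 50 factors were lower, against 9.24% of 4818 genes, whose median log2 fold change was -0.023. After adjustment 0 factors passed, as did 0 of all genes (0%), at an adjusted p-value under 0.05 and a log2 fold change over 0.25 in size (edgeR quasi-likelihood test, Benjamini-Hochberg adjusted, smallest value among the factors 0.159, for Eif2b5). DESeq2 called 2 factors by the same rule, Eef2 and Eif4b, with 0.424% of its 13457 genes called in either direction.

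**Figure D2:**
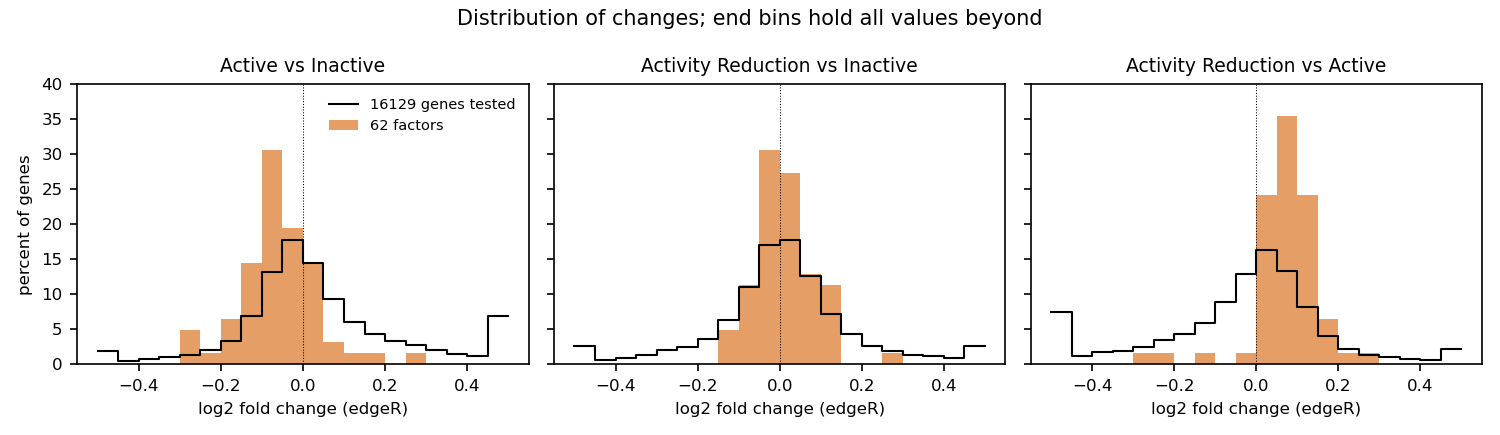
Percent of genes in bins of 0.05 log2 units for the 62 factors (bars) and the 16129 tested genes (line) in each comparison, with values beyond 0.5 in the end bins. The factors sat left of 0 between the Active and Inactive groups (median -0.065), around 0 between the Activity Reduction and Inactive groups (0.015) and right of 0 between the Activity Reduction and Active groups (0.070).

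The lower factors came from nearly every step of initiation and from elongation. Against the counts by role stand 4.69% of all tested genes, and 9.24% of those with a mean of at least 1000 normalized counts. No role was tested as such. In eIF3, the large scaffold of initiation, all 14 genes had a log2 fold change below 0 (from -0.28 to -0.03). At an unadjusted p-value under 0.05, 6 were lower: Eif3b, Eif3c, Eif3e, Eif3l, and Eif3j1 and Eif3j2, which are near copies of each other. Of the 3 subunits of eIF2, Eif2s1 and Eif2s3x were lower, and of the 5 subunits of its exchange factor eIF2B, Eif2b1 and Eif2b5. Eif4a2, Eif4b and Eif4h of the helicase group, 3 of 5, were lower, as was 1 of 3 scaffolds, Eif4g1. By contrast 0 of the 3 cap-binding proteins and 0 of the 2 eIF5A genes passed that p-value in either direction with edgeR, and DESeq2 gave none of them an adjusted p-value under 0.05. The summed normalized counts of eIF3 went from 66565 in the Inactive to 62389 in the Active group, and those of the helicase group from 50910 to 45364.

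**Figure D3:**
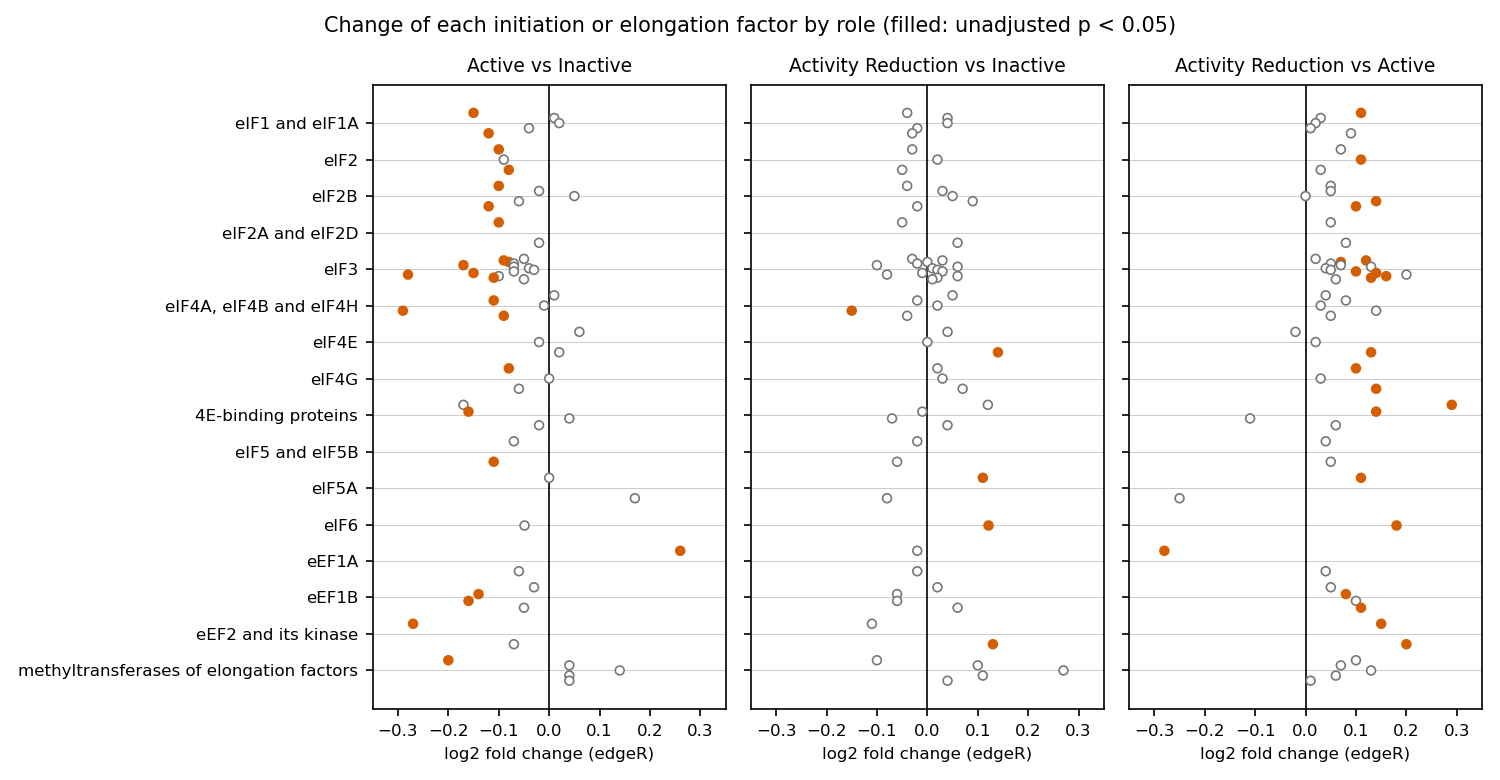
Log2 fold change (edgeR) of each of the 62 factors, by role, in the 3 comparisons, with points filled where the unadjusted p-value is under 0.05. In eIF3 all 14 genes lay below 0 between the Active and Inactive groups and above 0 between the Activity Reduction and Active groups. Eef1a1 lay on the opposite side from most factors in both.

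Eef2, which drives translocation of the ribosome, is on chromosome 10 (81012465 to 81018348, GRCm39). It had between 83036 and 104649 normalized counts (median 90785) in the Inactive libraries and between 66374 and 82796 (median 78809) in the Active libraries. The groups did not overlap. The means were 92830 ± 7061 and 76779 ± 6287, a log2 fold change of -0.27 with a standard error of 0.0642 and an adjusted p-value of 0.162 (edgeR quasi-likelihood test, Benjamini-Hochberg adjusted), against 0.0144 with DESeq2. Without overlap and lower in the Active group were 4 of the 62 factors, Eef2, Eif4b, Eif4ebp2 and Eif4g1, where 0.211% of the tested genes were.

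Eif4b, which stimulates the eIF4A helicase, is on chromosome 15 (101982075 to 102005614). It ranged from 17231 to 21309 (median 19107) in the Inactive and from 13855 to 16964 (median 16432) in the Active libraries. Its log2 fold change of -0.29 (standard error 0.0722) was the lowest of the 62, with an adjusted p-value of 0.162 by the edgeR quasi-likelihood test, Benjamini-Hochberg adjusted and 0.0211 with DESeq2. A long noncoding gene on the opposite strand, Gm53915, overlaps 30.4% of its exon bases, and the strand of the counting is not given in the sources used here.

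Eif2b5, the catalytic subunit of the exchange factor of eIF2, is on chromosome 16 (20317240 to 20330928). Its counts in the Active libraries were narrow, between 2548 and 2645 (median 2632), against 2638 to 2990 (median 2841) in the Inactive libraries, where 1 library reached into the Active range. The log2 fold change was -0.12 with a standard error of 0.0273. Eif4ebp2, on chromosome 10 (61264032 to 61288567), had 3665 to 4282 (median 3886) in the Inactive and 3361 to 3637 (median 3509) in the Active libraries, with a log2 fold change of -0.16 and a standard error of 0.0394. Eef1d, a subunit of eEF1B, had 4595 to 5283 (median 4936) and 4215 to 4657 (median 4419), with a log2 fold change of -0.14 and a standard error of 0.0349, and these groups overlapped. For these 3 the DESeq2 adjusted p-values were 0.0204, 0.0315 and 0.0234, but each change was smaller than 0.25. Eif4g1 was the steadiest of the scaffolds in the Inactive group, at 39437 to 41182 (median 39772), and had 36270 to 39434 (median 37466) in the Active group, a log2 fold change of -0.08 with a standard error of 0.032.

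**Figure D4:**
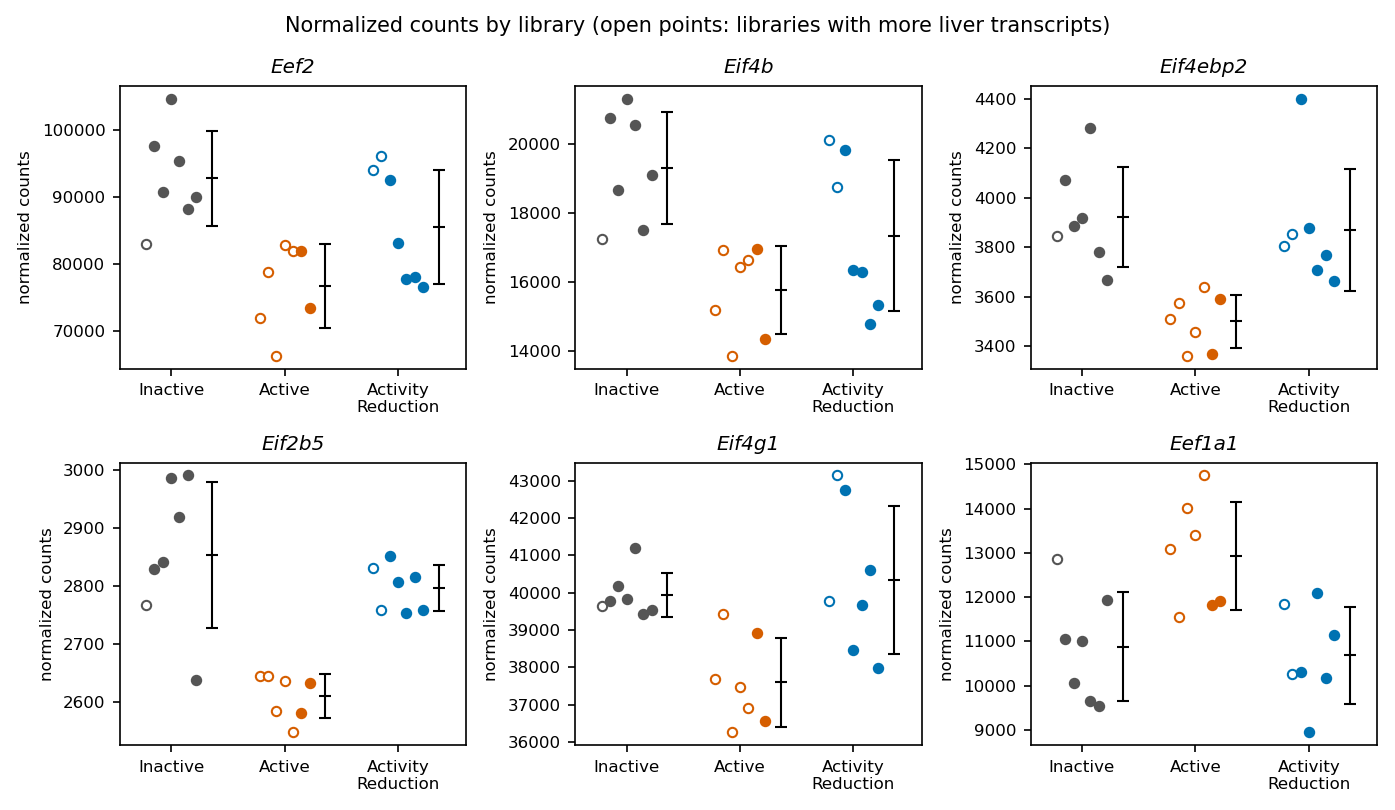
Normalized counts of 6 factors in each library by group, with the mean and SD beside the points and the 8 libraries with more liver transcripts as open points. Eef2, Eif4b, Eif4ebp2 and Eif4g1 had no Active library above the lowest Inactive library, and Eef1a1 was highest in the Active group.

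With the liver division as a covariate, 17 factors were lower in the Active group at an unadjusted p-value under 0.05, against 4.27% of the tested genes. In the 13 libraries with fewer liver transcripts, where the Active group has only 2 mice, 11 of 62 were lower, against 3.06% of 17175 genes. There, Eef2 had a log2 fold change of -0.28, Eif4b of -0.32, Eif2b5 of -0.13 and Eif4ebp2 of -0.17, as large as over all libraries. The median over the factors was -0.060. Among the 8 libraries with more liver transcripts (5 Active mice and 1 Inactive) the log2 ratio of the group means was smaller. It was -0.12 for Eef2, -0.12 for Eif4b, -0.08 for Eif2b5 and -0.13 for Eif4ebp2, with no test of that difference. By library, the median log2 deviation of the 62 factors from their means over all libraries lay between -0.02 and 0.06 in the Inactive, -0.09 and 0.00 in the Active and -0.02 and 0.06 in the Activity Reduction libraries. The highest Active value and the lowest values of the other groups overlapped.

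**Figure D5:**
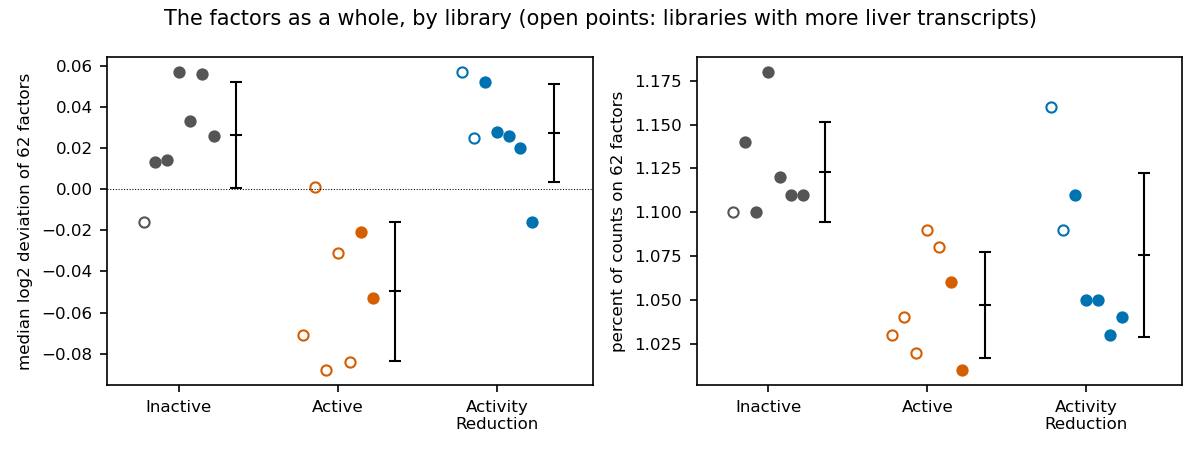
Median log2 deviation of the 62 factors from their mean over libraries (left) and their percent of all counts (right) in each library, with the mean and SD beside the points and libraries with more liver transcripts as open points. The Active libraries reached from -0.09 to 0.00 and the libraries of both other groups from -0.02 to 0.06 (left), and shares ran from 1.01% to 1.18% (right).

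Eif4e, Eif4ebp3, Eif5a2 and Eef1a1 lay above 0 between the Active and Inactive groups and below 0 between the Activity Reduction and Active groups. Of the 14 factors above 0 in the first comparison, only Eef1a1 had an unadjusted p-value under 0.05 (edgeR's quasi-likelihood test). It had 9537 to 12865 normalized counts (median 11021) in the Inactive, 11550 to 14751 (median 13095) in the Active and 8953 to 12094 (median 10302) in the Activity Reduction libraries, so all 7 Active libraries were above the median of either other group. The log2 fold change was 0.26 (standard error 0.0758) between the Active and Inactive groups, with an adjusted p-value of 0.247 (edgeR quasi-likelihood test, Benjamini-Hochberg adjusted), and -0.28 (standard error 0.0758) between the Activity Reduction and Active groups, with 0.14 by the same test. DESeq2 gave 0.0777 and 0.0278. Eef1a2 had 100303 ± 3936, 95782 ± 1312 and 98708 ± 7012 normalized counts in the Inactive, Active and Activity Reduction groups, and neither comparison with the Active group reached an unadjusted p-value of 0.05 (0.14 and 0.302, edgeR's quasi-likelihood test over all genes).

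Some markers of cells other than fibres were higher in the Active group together with Eef1a1. The 7 endothelial markers, none of them at 0, summed to 189 to 240 CPM in the Inactive, 207 to 273 in the Active and 179 to 216 in the Activity Reduction libraries, and 4 of the 7 were higher in the Active than in the Inactive group at an unadjusted p-value under 0.05, against 6.18% of all tested genes. The 7 macrophage markers summed to 20.1 to 32.7, 23.7 to 35.3 and 13.6 to 29.4 CPM, with 3 of 7 higher, and the 6 markers of fibroblasts and tendon to 103 to 208, 154 to 231 and 109 to 188 CPM, with 1 of 6 higher. Of the adipocyte (6) and Schwann cell (6) markers 0 and of the erythroid markers 1 of 5 were higher in that comparison, as were 2 of 12 fibre markers and 4 of 24 liver genes. All 24 liver genes had a log2 fold change above 0 between the Active and Inactive groups, with a median of 1.22. With the liver division as a covariate, Eef1a1 had a log2 fold change of 0.16 between the Active and Inactive groups. Between the Activity Reduction and Active groups it was -0.20. The unadjusted p-values were 0.043 and 0.00981 (edgeR's quasi-likelihood test). Among the 8 libraries the log2 ratio of the group means was 0.05 (5 Active mice and 1 Inactive) and -0.27 (2 Activity Reduction mice and 5 Active). Within the 13 libraries, Eef1a1 had a log2 fold change of 0.17 between the Active and Inactive groups and -0.18 between the Activity Reduction and Active groups, with unadjusted p-values of 0.0953 and 0.0978 from edgeR's quasi-likelihood test across all genes. The part of these cells and of the liver transcripts in the level of Eef1a1 was not tested.

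Between the Activity Reduction and Active groups, 58 of the 62 factors had a log2 fold change above 0 and 4 below, with a median of 0.070, against 49.8% above 0 and a median of -0.001 for all tested genes. Both this comparison and the previous one use the same Active libraries, so their values are set side by side and are not independent of each other. Depth, too, was lower in nearly all Active libraries in both comparisons, and its part was not tested. At an unadjusted p-value under 0.05, 21 factors (33.9%) were higher in the Activity Reduction group, against 6.89% of the tested genes, and 1, Eef1a1, was lower, against 6.44%. Among genes with a mean of at least 1000 normalized counts, 21 of 50 factors were higher, against 15.9%, and the median log2 fold change was 0.073 for these factors and 0.037 for these genes. With edgeR 0 factors were called after adjustment, as were 0 of all genes (0%), and DESeq2 called Eef1a1 only, with 0.869% of its genes called.

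By role, 6 of the 14 eIF3 genes were higher after activity reduction at an unadjusted p-value under 0.05, and all 14 lay above 0 (from 0.02 to 0.20). Against these counts stand 6.89% of all tested genes, and 15.9% of those with a mean of at least 1000 normalized counts. No role was tested as such. Of the subunits of eIF2B, Eif2b4 and Eif2b5 were higher, and of the scaffolds, Eif4g1 and Eif4g3. Both Eef2 and its inhibitory kinase Eef2k were higher, as were Eif4ebp1 and Eif4ebp2, which restrain eIF4E. Eif6, which keeps the ribosomal subunits apart, and Eif5a were higher as well. The list therefore held both factors that promote translation and proteins known to restrain it.

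Eif4ebp1 had the largest change of the 62 in this comparison. It ranged from 1333 to 1733 normalized counts (median 1568) in the Active and from 1426 to 2259 (median 1929) in the Activity Reduction libraries, so the groups overlapped, and the Inactive median of 1783 (1492 to 2099) lay between. Its log2 fold change was 0.29 with a standard error of 0.0902 and an adjusted p-value of 0.179 (edgeR quasi-likelihood test, Benjamini-Hochberg adjusted). Eef2k had 3328 to 4206 (median 3825) in the Active and 3826 to 4971 (median 4448) in the Activity Reduction libraries, a log2 fold change of 0.20 with a standard error of 0.0633. Eif6 had 1398 to 1711 (median 1581) and 1509 to 1931 (median 1818), a log2 fold change of 0.18 with a standard error of 0.0565.

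Without overlap and higher in the Activity Reduction group were 3 of the 62 factors, Eif2b5, Eif3b and Eif4ebp2, where 0.18% of the tested genes were. Eif2b5 had 2753 to 2851 normalized counts (median 2807) in the Activity Reduction libraries, all above the 2645 of the highest Active library, with a log2 fold change of 0.10, a standard error of 0.0274 and an adjusted p-value of 0.148 by the edgeR quasi-likelihood test, Benjamini-Hochberg adjusted. Eif4ebp2 had 3664 to 4399 (median 3805), a log2 fold change of 0.14 with a standard error of 0.0394. Eif3l, another eIF3 subunit, had 1938 to 2122 (median 2030) in the Active and 2120 to 2356 (median 2199) in the Activity Reduction libraries, overlapping by a few counts, with a log2 fold change of 0.13 and a standard error of 0.0361. Eef2 in the Activity Reduction libraries spread from 76660 to 96163, across the ranges of both other groups, and its median of 83239 was above the highest Active library (82796).

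With the liver division as a covariate 18 factors were higher in the Activity Reduction group, against 5.54% of the tested genes. In the 13 libraries, the count was 1, against 2.02% of the genes tested there. The median log2 fold change over the factors was 0.055 in those libraries, close to the 0.070 over all libraries, and that fit compared 5 mice with 2.

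Between the Activity Reduction and Inactive groups the factors were spread around 0. The log2 fold change was above 0 for 33 and below 0 for 29, with a median of 0.015 against 0.006 for all tested genes. At an unadjusted p-value under 0.05, 4 factors were higher, Eef2k, Eif4e3, Eif5a and Eif6, against a background of 4.19%, and 1 was lower, Eif4b, against 3.54%. These shares, 6.45% and 1.61%, are near the background. No factor was called with edgeR (0 of 62, where 0.0124% of all genes were called) or DESeq2 (0 of 58 with an adjusted value, where 0.252% were), and the smallest adjusted p-value was 0.569 for Eif4e3 (edgeR quasi-likelihood test, Benjamini-Hochberg adjusted).

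Eif4e3, a cap-binding relative of eIF4E, had 2038 to 2307 normalized counts (median 2108) in the Inactive, 1754 to 2443 (median 2137) in the Active and 2175 to 2675 (median 2289) in the Activity Reduction libraries. The Activity Reduction group was above the Inactive group by a log2 fold change of 0.14 (standard error 0.0579) and above the Active group by 0.13 (0.058). Eif4b, at 14762 to 20100 (median 16348) in the Activity Reduction libraries, had a mean of 17341 ± 2180, between the means of the Active (15760) and Inactive (19304) groups. Its log2 fold change was -0.15 (standard error 0.0722) against the Inactive and 0.14 (the same standard error) against the Active group. Eef2 differed from the Inactive group by a log2 fold change of -0.11 over all libraries and -0.12 with the liver covariate, with unadjusted p-values of 0.0905 and 0.0714 from the edgeR quasi-likelihood test across all genes. The values of both differed with the liver division. Among the 13 libraries (5 Activity Reduction and 6 Inactive mice) the log2 ratio of the group means was -0.25 for Eif4b and -0.21 for Eef2, and among the 8 libraries (2 mice and 1) it was 0.17 and 0.20, with no test of that difference.

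Over the 3 groups together, the edgeR test of any difference gave an unadjusted p-value under 0.05 for 25 of the 62 factors (40.3%), against 12.6% of the tested genes. The smallest belonged to Eif2b5 (0.000488), Eif4ebp2 (0.00099) and Eef2 (0.00164), each from edgeR's quasi-likelihood test across all genes. Small differences were found for Eif4e2 (2398 ± 121, 2355 ± 117 and 2387 ± 88.1 in the Inactive, Active and Activity Reduction groups), Eif4a3 (1119 ± 37.6, 1110 ± 82 and 1133 ± 61) and Eif1a (639 ± 37.1, 639 ± 69.3 and 655 ± 61.3), whose group means differed by less than the SD between libraries.

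The wider pathway was described with lists of genes that are not among the 62. The shares of all tested genes at an unadjusted p-value under 0.05, against which every count on these lists stands, were 4.69% lower and 6.18% higher in the Active than in the Inactive group, and 6.89% higher and 6.44% lower in the Activity Reduction than in the Active group. Among genes with a mean of at least 1000 normalized counts, 9.24% were lower in the Active than in the Inactive group. Of those genes 15.9% were higher in the Activity Reduction than in the Active group. Many listed genes are that abundant. Of 12 genes of the eIF2 kinases and the integrated stress response, 1 was higher and 2 were lower in the Active than in the Inactive group at an unadjusted p-value under 0.05. Chac1, a target of that response, had 1404 to 3307 normalized counts (mean 2350) in the Inactive and 1149 to 2147 (mean 1466) in the Active libraries, a log2 fold change of -0.67 with an adjusted p-value of 0.329 (edgeR quasi-likelihood test, Benjamini-Hochberg adjusted). The kinase of the endoplasmic reticulum stress response, Eif2ak3 (PERK), was on the other side, at 194 ± 18.8 and 231 ± 21.4, a log2 fold change of 0.26. Eif2ak1 had 3341 ± 142 and 3127 ± 126, a log2 fold change of -0.09.

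Of 13 genes of mTORC1 and its regulators, 2 were lower in the Active than in the Inactive group (4.69% of all tested genes) and 4 were higher in the Activity Reduction than in the Active group (6.89%). Among genes with a mean of at least 1000 normalized counts these shares were 9.24% and 15.9%. Deptor, an inhibitor of mTOR, had 7655 ± 599, 6462 ± 748 and 6505 ± 936 normalized counts in the Inactive, Active and Activity Reduction groups, and Tsc2 had 5141 ± 116, 4775 ± 331 and 4942 ± 267. Akt1s1 (PRAS40), another inhibitor of mTORC1, had 6959 ± 336, 6615 ± 380 and 7395 ± 801. Of 12 regulators of the cap-binding complex 1 was lower in the Active group, and 2 were higher and 1 lower after activity reduction. Mknk2, a kinase of eIF4E, had 11163 ± 1151, 10624 ± 481 and 12496 ± 1047, a log2 fold change of 0.23 between the Activity Reduction and Active groups with an adjusted p-value of 0.126 by the edgeR quasi-likelihood test, Benjamini-Hochberg adjusted.

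Among 9 enzymes that make hypusine on eIF5A and diphthamide on eEF2, 1 was lower in the Active group (Dhps, 722 ± 57.6 against 647 ± 59.1) and 1 was higher after activity reduction (Dohh, 566 ± 69.9 against 481 ± 46.2 in the Active group). Of 8 termination and recycling factors 2 were lower in the Active group, among them Etf1, which reads stop codons, at 6782 ± 299 against 6213 ± 188, and 2 were higher after activity reduction. Of the 20 genes tested on the list of cytosolic aminoacyl-tRNA synthetases, 4 were lower in the Active group (4.69% of all tested genes). On this list 18 had a log2 fold change below 0 in that comparison (48.4%) and 7 were higher after activity reduction (6.89%). The 20 include Aimp1 and Aimp2, which are partners of the synthetases and not synthetases, and Aimp1 is among the 7. Of genes with a mean of at least 1000 normalized counts, 9.24% were lower and 15.9% higher in these comparisons. Qars, the glutaminyl-tRNA synthetase, had 3620 ± 192 normalized counts in the Inactive, 3228 ± 70 in the Active and 3407 ± 118 in the Activity Reduction group, with an adjusted p-value of 0.159 between the first 2 (edgeR quasi-likelihood test, Benjamini-Hochberg adjusted). Of the 10 factors of mitochondrial translation tested, 0 reached an unadjusted p-value of 0.05 in any of the 3 comparisons with edgeR, and 0 with DESeq2. The smallest edgeR p-value among them belonged to Guf1, which had 902 ± 66.3 normalized counts in the Inactive and 990 ± 79.9 in the Active group, a log2 fold change of 0.14.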

How the data were processed

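The authors used fastp for trimming, RNA STAR for alignment to the GRCm39 assembly and featureCounts for counting. Versions, the annotation and the strand of counting are not given in the sources used here. The deposited table holds raw counts per gene, and another table, named for normalized counts, holds the same 857913 values and was not used further. The normalized counts given here were computed with DESeq2's size factors over the 21 libraries. Groups and replicate numbers came from the labels.

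Counts were tested with edgeR 4.0.16 (TMM, filterByExpr, glmQLFit and glmQLFTest) in 1 model of the 3 groups, with Benjamini-Hochberg adjustment over the 16129 genes tested. DESeq2 1.42.0 was an alternative, as were its size factors in edgeR, no filter on low counts, only the 2 groups compared, a replicate block, the liver division as a covariate, and the 13 libraries with fewer liver transcripts alone. Both tools were tested on simulated data. The p-values set a group difference against the spread between libraries. With 1 library per mouse, that spread holds differences between mice, dissections and library preparations together. The libraries of a group differed by more than sampling noise, so none was counted as a duplicate.

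Gene positions and lengths came from GENCODE M39 (GRCm39), near copies from blastn 2.17.0 (at least 95% identity over 100 bases), and promoters from RefSeq (GRCm38.p6), where 48 of the 62 factors matched by symbol. For 15 aminoacyl-tRNA synthetase genes the count table has an older symbol, found through RefSeq synonyms. The factors and lists were chosen with earlier results of these data known. Named factors are, by rule, the 6 with the smallest p in each comparison, those DESeq2 called, the most abundant overall and per role, the sets of paralogs and up to 3 genes per pathway list, and others are named, after their values were seen, in counts of a role, in counts of groups that did not overlap, or as the least abundant factors.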

Additional observations from a re-analysis of the deposited data

Results flagged for a closer look

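Within a group of 7 libraries, 1 library stood apart from the other 6 by more than Dixon's 95% limit in 5 of the 111 sets of values examined, 37 named factors in 3 groups. Chance flags about 1 such set in 20. Inactive replicate 7 was highest for Eef2k, with 4766 normalized counts where the next library had 3994, and for Eif5a2, with 109 where the next had 58.1. Activity Reduction replicate 3 had 4399 for Eif4ebp2 (next 3877), Inactive replicate 5 had 41182 for Eif4g1 (next 40186), and Active replicate 2 had 42109 for Eif4g2 (next 38996).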

How the results depend on the processing

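The median log2 fold change of the 62 factors kept its sign under all 7 alternatives, from -0.072 to -0.057 between the Active and Inactive groups, from 0.001 to 0.015 between the Activity Reduction and Inactive groups and from 0.055 to 0.073 between the Activity Reduction and Active groups. Without the libraries with more liver transcripts, which leaves 2 Active mice, the factors lower in the Active than in the Inactive group went from 23 to 11. In that setting 3.06% of all genes were lower. The factors higher went from 1 to 0. In the same setting the factors higher after activity reduction than in the Active group went from 21 to 1, where 2.02% of all genes were higher, and those lower from 1 to 0. Those differing among the 3 groups went from 25, where 12.6% of all genes differed, to 7. Against the Inactive group 1 was higher and 5 were lower after activity reduction. Higher factors between the Activity Reduction and Inactive groups, 4 as reported, numbered 2 with DESeq2, with its size factors in edgeR and with the liver covariate. They numbered 1 with no filter and with only the 2 groups. The single lower factor became 0 with only the 2 groups and with the replicate block. Where no share stands beside a count here, the share of all genes in that setting was not computed. No excess over all genes can be read from such a count.

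Over all genes, calls after adjustment numbered 0, 2 and 0 in the Active and Inactive, the Activity Reduction and Inactive, and the Activity Reduction and Active comparisons. DESeq2 gave 57, 23 and 117. With only the 2 groups the first became 3 and the second 0, the second became 0 with DESeq2's size factors and without the libraries with more liver transcripts, 1 with the liver covariate and 4 with the replicate block, and the third became 1 with DESeq2's size factors. The replicate numbers of the labels were checked for pairing: 7 of 21 same-numbered pairs of libraries correlated above 0.1 in their deviations from the group means (range -0.222 to 0.471) and 3 of 21 libraries correlated best with their own number, so they were not treated as paired. With the replicate block 22 factors were lower in the Active than in the Inactive group and 20 were higher after activity reduction than in the Active group. The shares of all genes with the block were not computed.

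Of the 40 values of named factors with an unadjusted p-value under 0.05, 38 stayed there with DESeq2, 33 with the liver covariate and 12 without the libraries with more liver transcripts, and none changed sign. Whether changes of a few percent of abundant factors are limited more by the spread between mice or by depth was not tested.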
